A study of Mus musculus with 8 samples.

Results

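The genes described here are the machinery that loads peptides onto major histocompatibility complex (MHC) molecules in B cells, 37 genes named for their roles in the class I pathway (17 genes) or the class II pathway (20 genes). Each gene was represented by its brightest probe set that the array's annotation assigns to no other gene, taking the mean signal over all 8 arrays. Of the 37 genes, 33 had such a probe set, 14 of class I and 19 of class II, out of 18194 genes with such a probe set in the series. All 33 were bright enough to be tested, as were 11799 genes in all. H2-Q7, H2-T23, Psme2 and H2-DMb1 lay only on probe sets that several genes share, and those probe sets are given apart.

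The arrays measured RNA of splenic B cells that had been enriched by removing other cells with magnetic beads. The mutant mice, 4 arrays, were homozygous for a null Irf4 genotype (irf4-/-), and the 4 arrays set against them came from littermates with both Irf4 copies intact (irf4+/+, WT). All mice were of strain C57BL/6 and 12 weeks old, and their B cells are described as mature, with no treatment named. The labels used here give neither the deleted exons of Irf4 nor whether each array stands for a separate mouse, so p-values describe the spread between these arrays, some of which may be technical. Irf4, the lymphocyte transcription factor that the mutation targets, read 244 to 315 in Irf4 null and 1720 to 2341 in WT arrays and fell by 2.76 ± 0.12 on the log2 scale (SE, limma fit, adjusted p = 4.61e-06).

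MHC class I molecules present peptides from proteins of the cell's own cytoplasm to CD8 T cells. The proteasome, in immune cells with inducible subunits, cuts these peptides, the Tap transporter carries them into the endoplasmic reticulum, and tapasin and its relatives load them onto a heavy chain paired with beta-2 microglobulin. MHC class II molecules present peptides from internalised proteins to CD4 T cells. Their alpha and beta chains travel with the invariant chain Cd74, lysosomal proteases remove it, and the DM molecules exchange its last fragment for a peptide, which the DO molecules restrain in B cells. The transcription of the class I genes is driven by Nlrc5 and interferon-responsive factors, and that of the class II genes by Ciita, which both act through the RFX proteins on the X and Y boxes of the promoters.

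The array values are MAS5 signals on a linear scale. The mean signal without the highest and lowest probe sets was 500.003 on every array, and correlations between arrays lay between 0.960 and 0.982. Arrays also differed by Xist, an RNA of the inactive X chromosome, in a way that followed genotype in part. Genotype and Xist class are therefore partly confounded. Xist read above 1000 on Irf4 null array 1 and on WT arrays 1, 3 and 4 (Xist-high), and below 100 on Irf4 null arrays 2, 3 and 4 and on WT array 2 (Xist-low). Signals of other blood cell types followed that division too. Their mean over 61 genes was 8.37, 9.51, 9.59 and 9.06 (log2 signal) on Irf4 null arrays 1 to 4, against 8.07, 9.49, 8.18 and 8.06 on WT arrays 1 to 4. The 10 measured B cell markers summed to signals of 110630 to 121497 in Irf4 null and 115286 to 129550 in WT arrays, and none of them passed the test. In RNA of whole preparations, fewer cells of a type and less RNA per cell cannot be told apart.

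The promoters of 4 of the genes are shown here, because motifs of these pathways can be read in them. Of the 4, Psmb9 alone was called on a probe set of its own. They come from RefSeq on the build GRCm38.p6, run from 250 bases before to 50 bases after the transcription start, and are written 5′ to 3′ on the strand of the gene. Psmb9, an inducible proteasome subunit, lies at chr17:34187281-34187580 on the minus strand, with a Y box and, as the reverse complement on the strand shown, a match to the looser X box in capitals. H2-Q7, a non-classical class I heavy chain, lies at chr17:35438905-35439204 on the plus strand, with a kappa B match and Y boxes in capitals. B2m, the light chain of every class I molecule, lies at chr2:122147437-122147736 on the plus strand, with an interferon response match and a Y box in capitals. H2-Ob, the beta chain of DO, lies at chr17:34238655-34238954 on the plus strand, with the X box consensus and a Y box in capitals.
Psmb9: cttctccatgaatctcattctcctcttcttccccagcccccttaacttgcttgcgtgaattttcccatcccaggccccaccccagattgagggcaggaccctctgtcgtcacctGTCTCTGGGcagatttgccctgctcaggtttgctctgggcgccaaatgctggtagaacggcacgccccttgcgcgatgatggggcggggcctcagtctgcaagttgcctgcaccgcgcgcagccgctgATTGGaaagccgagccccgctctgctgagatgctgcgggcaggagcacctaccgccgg
H2-Q7: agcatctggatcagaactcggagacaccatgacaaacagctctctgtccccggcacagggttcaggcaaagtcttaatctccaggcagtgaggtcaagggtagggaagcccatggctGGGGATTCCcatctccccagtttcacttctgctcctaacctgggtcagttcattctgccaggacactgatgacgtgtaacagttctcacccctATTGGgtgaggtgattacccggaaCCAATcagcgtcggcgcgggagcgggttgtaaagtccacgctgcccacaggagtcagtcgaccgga
B2m: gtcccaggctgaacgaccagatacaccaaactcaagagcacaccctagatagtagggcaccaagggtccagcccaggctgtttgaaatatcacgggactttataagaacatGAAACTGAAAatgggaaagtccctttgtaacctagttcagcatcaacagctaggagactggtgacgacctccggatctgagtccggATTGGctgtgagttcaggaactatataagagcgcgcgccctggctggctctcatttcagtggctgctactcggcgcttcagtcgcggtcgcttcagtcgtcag
H2-Ob: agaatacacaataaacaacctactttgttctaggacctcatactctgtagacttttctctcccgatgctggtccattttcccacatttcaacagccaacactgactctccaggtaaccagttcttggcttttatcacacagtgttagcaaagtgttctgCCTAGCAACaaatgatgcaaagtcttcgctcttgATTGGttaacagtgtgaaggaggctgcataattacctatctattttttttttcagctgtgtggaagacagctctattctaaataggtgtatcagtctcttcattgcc

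The average of the class I genes was higher on each Irf4 null array than on any WT array, which was not so for class II, and few genes of either class passed the test. Of the 14 measured class I genes, Nlrc5 and Psmb9 rose and none fell (limma, adjusted p below 0.05 over all 27022 probe sets tested), where 2.67% of the 11799 genes rose. Of the 19 measured class II genes, Marchf1 fell and none rose, where 1.70% of all genes fell. Without WT array 2, Psme1 and Tapbpl of class I also passed, and so did Ctsb and Ifi30 of class II. Before adjustment, 8 of the 14 class I genes and 3 of the 19 class II genes had a p below 0.05, where 20.4% of all genes did. The median log2 fold change, Irf4 null minus WT, was 0.24 over the class I genes and -0.03 over the class II genes, beside 0.025 over all genes tested. All 14 class I fold changes lay above 0, and 7 of the 19 class II fold changes did, where 6439 of 11799 genes did. With every array set to a common median signal, which moves fold changes down by 0.076 for bright probe sets and by less for dim ones, B2m, H2-D1 and Tap2 lay below 0 and the class I median was 0.16.

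**Figure D1:**
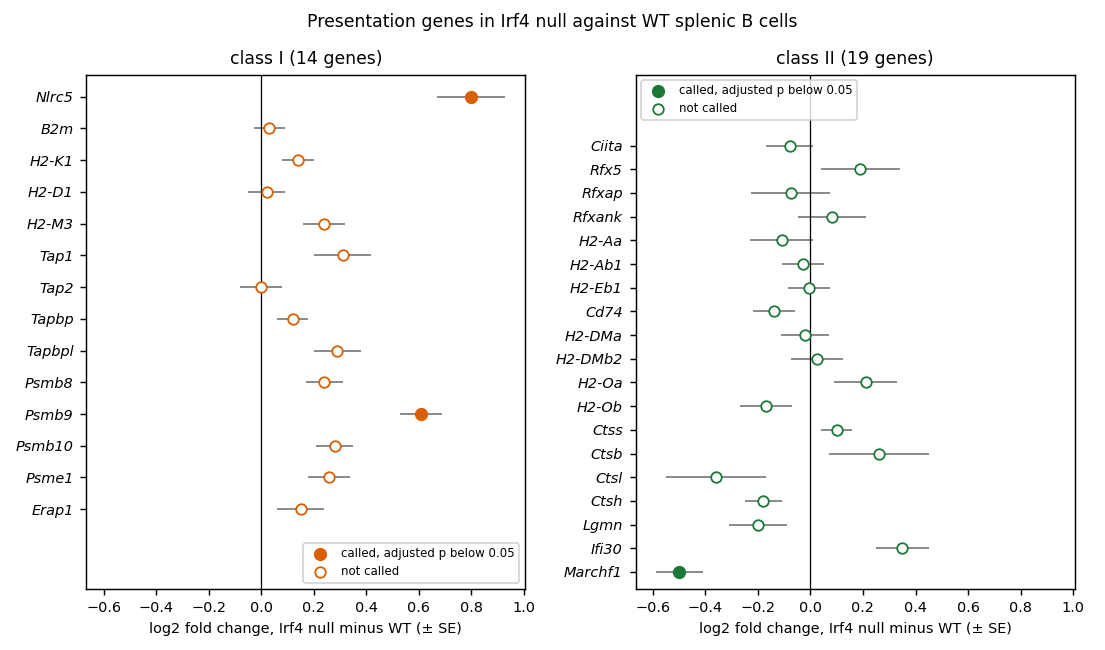
Log2 fold change (Irf4 null minus WT, n = 4 arrays each) of the 14 class I genes (left) and the 19 class II genes (right), with bars of 1 standard error; filled points passed the test. Nlrc5 and Psmb9 stand out to the right among class I genes, and Marchf1 to the left among class II genes.

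The signals of the groups did not overlap for 6 class I genes, each higher in Irf4 null (Nlrc5, H2-M3, Tapbpl, Psmb8, Psmb9 and Psmb10), where 7.13% of all genes were separated in that direction. In class II, Ctss and Ifi30 were separated with higher Irf4 null signals and Ctsh and Marchf1 with lower ones, a direction in which 5.71% of all genes were separated. Set against each gene's WT mean, the 14 class I genes averaged 0.26, 0.21, 0.28 and 0.25 (log2) on Irf4 null arrays 1 to 4, and -0.04, 0.02, 0.02 and 0.00 on WT arrays 1 to 4. Of the Irf4 null arrays, array 1 alone was Xist-high. The class I median log2 fold change was 0.24 within the Xist-high arrays and 0.17 within the Xist-low arrays, each with a lone array of 1 genotype. The part of Xist class in these averages was not tested. The 19 class II genes averaged 0.05, -0.09, 0.04 and -0.14 on the Irf4 null arrays and -0.04, 0.02, -0.03 and 0.05 on the WT arrays, with no separation of the groups.

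**Figure D2:**
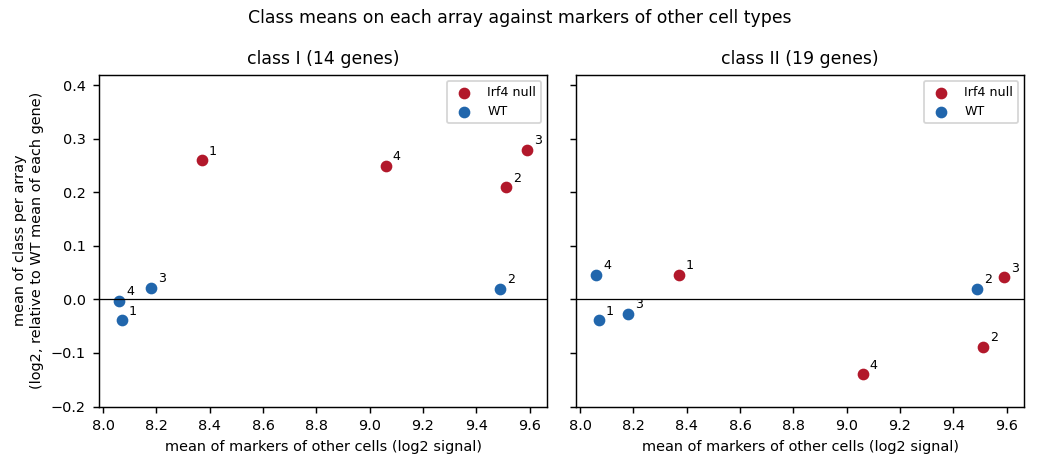
Mean of each class on each array (vertical axis, log2 relative to the WT mean of each gene) against the mean of 61 markers of other blood cells (horizontal axis, log2 signal), with array numbers beside the points. For class I the 4 Irf4 null arrays lie at 0.21 or more. WT array 2 is the only WT array with a marker mean (9.49) near that of Irf4 null arrays 2 and 3, and lies at 0.02 with the other WT arrays. With the marker mean as a covariate in the fit, the median log2 fold change was 0.21 for class I and -0.03 for class II genes. The part of other cells in these means was otherwise not tested.

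Nlrc5, the transactivator of class I genes, had signals of 2771, 2962, 2885 and 3186 in Irf4 null arrays, against 1591, 1940, 2038 and 1271 in WT arrays. The groups did not overlap, and the lowest Irf4 null value lay above the highest WT value by more than the whole Irf4 null range. The means were 2951 ± 175 in Irf4 null and 1710 ± 350 in WT (SD, n = 4 each), and Nlrc5 rose by 0.80 ± 0.13 on the log2 scale, 1.75-fold (SE; limma, adjusted p = 0.00821). The log2 fold change was 0.71 with an Xist-high term in the fit (adjusted p = 0.0278) and 0.70 with the mean of the other-cell markers as a covariate (adjusted p = 0.030). Within the Xist-high arrays alone it was 0.78 (adjusted p = 0.163) and within the Xist-low arrays alone 0.63 (adjusted p = 0.132), fits of 4 arrays in which the lone array of a genotype is taken to vary like the others.

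Psmb9 was the proteasome gene that rose on a probe set of its own. It encodes a catalytic subunit of the immunoproteasome, the form of the proteasome that favours peptides suited to class I molecules. Its signals were 7394, 6698, 7478 and 7249 in Irf4 null arrays, against 4309, 5298, 4908 and 4357 in WT arrays. No WT array came near the Irf4 null values, and Psmb9 rose by 0.61 ± 0.08, 1.53-fold (adjusted p = 0.0021). Its fold change was 0.57 (log2) with the Xist-high term (adjusted p = 0.00827), 0.71 within the Xist-high arrays (adjusted p = 0.0317) and 0.43 within the Xist-low arrays (adjusted p = 0.269).

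Psmb8, another catalytic subunit of the immunoproteasome, read 8314, 7554, 8928 and 8077 in Irf4 null arrays, against 6868, 6883, 6780 and 7350 in WT arrays. The groups did not overlap, and the log2 difference of 0.24 ± 0.07 did not pass the test (adjusted p = 0.0953). Psmb10, the last of the 3 inducible catalytic subunits, read 4081 to 4404 in Irf4 null and 3184 to 3809 in WT arrays, a difference of 0.28 ± 0.07 (adjusted p = 0.0642) that passed under 3 of the 25 alternatives tried. Psme1, the alpha subunit of the PA28 cap that opens the proteasome, read 8138 to 9837 in Irf4 null and 6841 to 8302 in WT arrays (0.26 ± 0.08, adjusted p = 0.122). Psme2, the beta subunit of that cap, shares its probe set with Psme2b. That probe set read 7429, 7704, 8126 and 8228 in Irf4 null arrays and 5761, 6547, 6501 and 6569 in WT arrays, and it rose by 0.31 ± 0.07, 1.24-fold (adjusted p = 0.034). Of 23 alternatives, 9 kept this call. It was lost with the Xist-high term (adjusted p = 0.125) and without any of Irf4 null arrays 2, 3 and 4 or WT arrays 1, 3 and 4 (0.27 to 0.33, adjusted p = 0.0649 to 0.105).

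The immunoproteasome subunits take the places of 3 constitutive ones, Psmb6, Psmb7 and Psmb5, so each pair was compared within arrays, a comparison added after the data were seen. The log2 ratio of Psmb9 to Psmb6, set against its WT mean, was 0.46, 0.47, 0.60 and 0.71 in Irf4 null arrays and -0.22, 0.12, 0.24 and -0.13 in WT arrays. The 4 Irf4 null arrays lay above all WT arrays, with a difference of 0.56 (exact two-sided permutation test over 70 arrangements, p = 0.0286, the smallest it can give). The Psmb10 to Psmb7 ratio was 0.38, 0.44, 0.18 and 0.46 in Irf4 null arrays and 0.18, -0.20, 0.13 and -0.10 in WT arrays, a difference of 0.37 (exact permutation p = 0.0571). The Psmb8 to Psmb5 ratio differed by 0.21 (exact permutation p = 0.0571), with 0.11 to 0.35 in Irf4 null and -0.19 to 0.17 in WT arrays. Adjusted over the 3 pairs every exact permutation p was 0.0571, so none passed. The constitutive 20S subunits as a list had a median log2 fold change of 0.046, and 0 of 14 were called by limma (1 at an unadjusted p below 0.05, beside 20.4% of all genes).

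**Figure D3:**
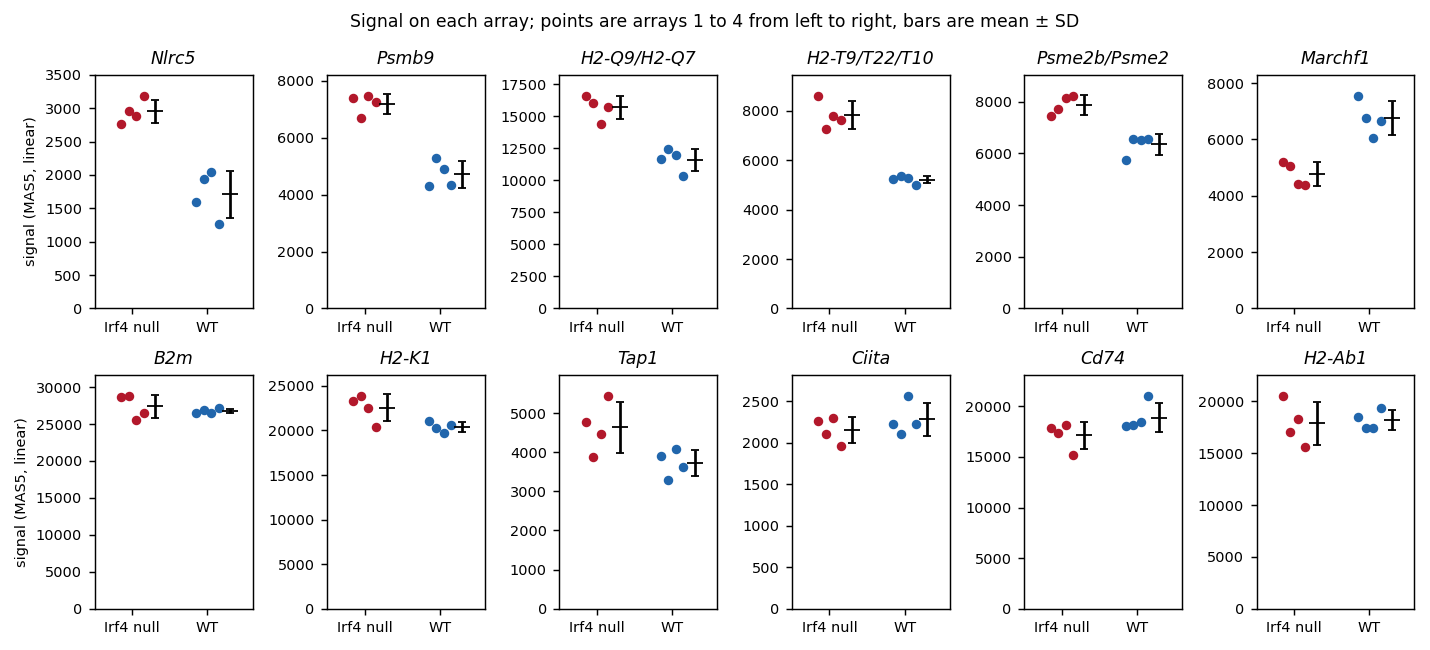
MAS5 signal (linear, each vertical axis from 0) of 12 genes or shared probe sets, with Irf4 null arrays 1 to 4 on the left of each panel, WT arrays 1 to 4 on the right, and the mean ± SD beside them. The top row shows probe sets that passed the test, whose groups do not overlap; the bottom row shows Tap1, Ciita and the bright chain genes, whose groups overlap.

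The classical class I chains were among the brightest RNAs on the arrays and none passed the test. B2m read 28622, 28781, 25584 and 26530 in Irf4 null arrays, against 26534, 26930, 26526 and 27103 in WT arrays (log2 fold change 0.031 ± 0.06, adjusted p = 0.851). H2-K1, a classical heavy chain, read 23320, 23854, 22575 and 20410 in Irf4 null arrays, against 21008, 20292, 19726 and 20586 in WT arrays (0.14 ± 0.06, adjusted p = 0.295). The Irf4 null arrays 1, 2 and 3 lay above every WT array and array 4 did not. H2-D1, the other classical heavy chain of this strain, read 17903, 18263, 18598 and 15810 in Irf4 null arrays, against 17279, 17753, 16562 and 17865 in WT arrays (0.02 ± 0.07, adjusted p = 0.919). Their probe sets lay between percentiles 99.5 and 99.8 of mean signal.

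Other probe sets of the same chains gave differences from -0.07 to 0.72, and those without overlap of the groups are described here. The probe set shared by H2-K1 and H2-D1 read 11965, 9866, 11631 and 14261 in Irf4 null arrays, against 6637, 9040, 7778 and 5625 in WT arrays. Its groups did not overlap and it rose by 0.72 ± 0.15, 1.65-fold (adjusted p = 0.022), where 2.01% of all probe sets rose. An H2-D1 probe set with a mean signal of 1239 in Irf4 null and 799 in WT arrays differed by 0.63 ± 0.17 (adjusted p = 0.0678), also without overlap. An H2-K1 probe set that read 10149 to 11483 in Irf4 null and 8307 to 9693 in WT arrays differed by 0.27 ± 0.07 (adjusted p = 0.0728). The call of the shared probe set was kept in 12 of 23 alternatives. It was lost with the Xist-high term (0.62, adjusted p = 0.0736) and without any of Irf4 null arrays 1, 3 and 4 or WT arrays 1 and 4 (0.61 to 0.73, adjusted p = 0.0505 to 0.0745). Near-identical heavy chain genes can hybridise to each other's probes, so a difference cannot be assigned to 1 of them.

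**Figure D4:**
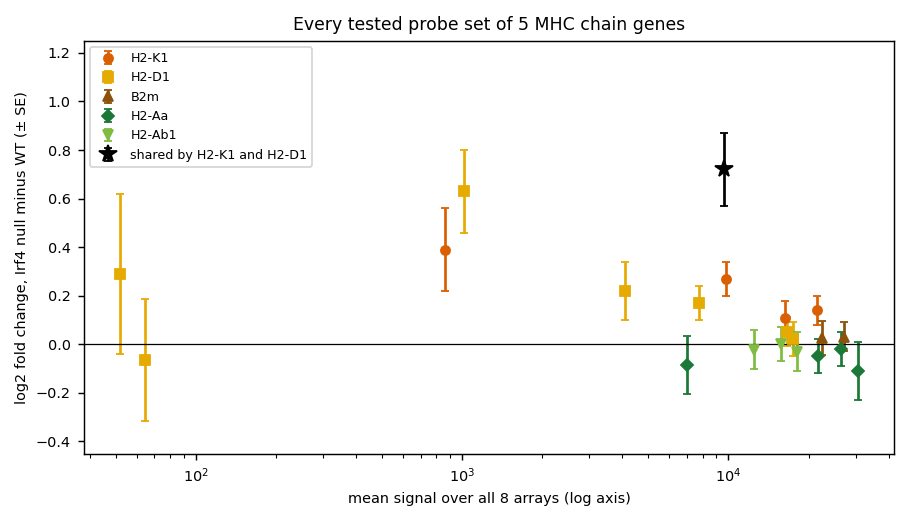
Log2 fold change (Irf4 null minus WT, bars of 1 standard error) of every tested probe set of H2-K1, H2-D1, B2m, H2-Aa and H2-Ab1, against its mean signal over all 8 arrays on a log axis. The star, the probe set shared by H2-K1 and H2-D1, lies at 0.72, while the brightest probe set of each gene lies between -0.11 and 0.14.

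Non-classical class I heavy chains of the Q and T regions rose on probe sets that their genes share. In all, 6 of the 13 tested shared probe sets rose, those of H2-K1 and H2-D1 and of Psme2 included, and none fell, where 2.01% of all probe sets rose and 1.51% fell. Q region molecules include Qa-2, a surface protein of lymphocytes. The H2-Q9 and H2-Q7 probe set read 16604, 16016, 14440 and 15720 in Irf4 null arrays, against 11646, 12413, 11949 and 10355 in WT arrays, and rose by 0.44 ± 0.07, 1.35-fold (adjusted p = 0.00901). The H2-Q6 and H2-Q8 probe set read 15096, 14284, 14272 and 12397 in Irf4 null arrays, against 10536, 9654, 10151 and 8578 in WT arrays. It rose by 0.53 ± 0.08, 1.44-fold (adjusted p = 0.0065), and the groups of both probe sets were apart. A further probe set of H2-Q6, H2-Q8 and H2-Q4 read 3935, 3091, 2637 and 3380 in Irf4 null arrays, against 2213, 2489, 2344 and 2115 in WT arrays, and rose by 0.49 ± 0.11 (adjusted p = 0.0405), a call that 10 of 23 alternatives kept. That call was lost without any of Irf4 null arrays 1, 2 and 4 or WT arrays 1, 3 and 4 (0.40 to 0.51, adjusted p = 0.0755 to 0.126). The call of H2-Q9 and H2-Q7 was lost with a common median (0.36, adjusted p = 0.0724) and in a fit without the variance trend. Of 23 alternatives, 19 kept the H2-Q9 and H2-Q7 call and 21 that of H2-Q6 and H2-Q8.

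T region genes H2-T22 and H2-T10 encode ligands of gamma delta T cell receptors. The brighter of their 2 probe sets, both shared with H2-T9, read 8601, 7274, 7774 and 7629 in Irf4 null arrays, against 5233, 5347, 5262 and 5003 in WT arrays. Every Irf4 null array lay well above the narrow WT range, and the probe set rose by 0.58 ± 0.07, 1.5-fold (adjusted p = 0.00112), with 22 of 23 alternatives keeping the call. The dimmer one read 320, 149, 140 and 277 in Irf4 null arrays, against 87.3, 154, 129 and 174 in WT arrays. Its groups overlapped, and its difference of 0.60 ± 0.28 did not pass (adjusted p = 0.315) in this or any of the 23 alternatives. With the Xist-high term, the H2-Q9 and H2-Q7 value was 0.43 (adjusted p = 0.0305), the H2-Q6 and H2-Q8 value 0.57 (adjusted p = 0.0112) and the value of the brighter H2-T9, H2-T22 and H2-T10 probe set 0.62 (adjusted p = 0.00209). Within the Xist-low arrays these 3 values were 0.31, 0.50 and 0.50, and within the Xist-high arrays 0.56, 0.63 and 0.73. Each of these fits holds a lone array of 1 genotype.

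H2-T23, which encodes Qa-1, the ligand of inhibitory NKG2A receptors, did not pass the test. Its brighter probe set, shared with H2-T-ps, read 14921 to 17598 in Irf4 null and 13652 to 15111 in WT arrays (0.14 ± 0.07, adjusted p = 0.341). The dimmer one, shared likewise, read 390 to 641 in Irf4 null and 489 to 688 in WT arrays. Its difference had the opposite sign (-0.15 ± 0.17, adjusted p = 0.721). H2-M3, which presents bacterial formylated peptides, read 6173, 5243, 5639 and 5262 in Irf4 null arrays, against 4571, 4262, 5139 and 4886 in WT arrays. The H2-M3 groups were apart by a small margin, and the difference of 0.24 ± 0.08 did not pass (adjusted p = 0.149). It passed in 1 of 25 alternatives, the fit with the Xist-high term (limma, adjusted p = 0.0492).

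Among the genes that load class I molecules, 0 of 4 were called by limma, and 2 had an unadjusted p below 0.05, as 20.4% of all genes had. Tap1, a subunit of the peptide transporter, read 4759, 3878, 4470 and 5432 in Irf4 null arrays, against 3910, 3299, 4071 and 3618 in WT arrays. The groups overlapped through Irf4 null array 2, and the difference was 0.31 ± 0.11 (adjusted p = 0.159). Tap2, the partner subunit, read 1077 to 1142 in Irf4 null and 1020 to 1192 in WT arrays, a difference of 0.00 ± 0.08 (adjusted p = 0.997). Tapbp, tapasin, which bridges the transporter and the heavy chain, differed by 0.12 ± 0.06 (adjusted p = 0.347), and its relative Tapbpl, a peptide editor, by 0.29 ± 0.09 (adjusted p = 0.102). Erap1, which trims peptides in the endoplasmic reticulum, differed by 0.15 ± 0.09 (adjusted p = 0.436).

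In class II, none of the 4 regulators, the 3 chains or the 5 loading genes measured was called by limma, and none had an unadjusted p below 0.05. Ciita, the master regulator of class II transcription, read 2265, 2101, 2295 and 1955 in Irf4 null arrays, against 2223, 2105, 2559 and 2224 in WT arrays. The groups overlapped, with a log2 fold change of -0.08 ± 0.09 (adjusted p = 0.705). The RFX subunits that recruit Ciita to promoters also overlapped, with differences of 0.19 for Rfx5, -0.08 for Rfxap and 0.08 for Rfxank. A dimmer Rfxap probe set, whose groups overlapped too, differed by -0.45 ± 0.20 (limma, unadjusted p = 0.0438, adjusted p = 0.275).

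H2-Aa, the alpha chain of the I-A molecule, read 31914, 33669, 30782 and 22039 in Irf4 null arrays, against 29404, 31241, 31859 and 33344 in WT arrays (-0.11 ± 0.12, adjusted p = 0.715). Without Irf4 null array 4, the lowest of the 8, the difference was 0.03. H2-Ab1, the beta chain of I-A, read 20496, 17064, 18301 and 15611 in Irf4 null arrays, against 18465, 17386, 17448 and 19381 in WT arrays (-0.03 ± 0.08, adjusted p = 0.905). H2-Eb1, the beta chain of the I-E molecule, read 24360, 24097, 24021 and 20420 in Irf4 null arrays, against 22693, 22468, 22335 and 25658 in WT arrays (-0.01 ± 0.08, adjusted p = 0.983). All 3 chains overlapped between the groups. Their probe sets lay between percentiles 99.5 and 99.9 of mean signal. A dimmer H2-Aa probe set, with a mean of 6847 in Irf4 null and 7191 in WT arrays, differed by -0.08 ± 0.12. The alpha chain gene of I-E, H2-Ea, read 21.0 to 52.3 in Irf4 null and 9.9 to 29.1 in WT arrays. It was too dim to be tested.

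Cd74, the invariant chain, read 17906, 17379, 18109 and 15154 in Irf4 null arrays, against 18010, 18135, 18414 and 21014 in WT arrays. Only Irf4 null array 3 reached into the WT range, and the difference of -0.14 ± 0.08 did not pass (adjusted p = 0.40). The DM genes, which exchange the invariant chain fragment for a peptide, differed by -0.02 ± 0.09 for H2-DMa and 0.02 ± 0.10 for H2-DMb2. The 2 probe sets shared by H2-DMb1 and H2-DMb2 differed by -0.12 and -0.15 (adjusted p = 0.621 and 0.434). H2-Oa, the alpha chain of DO, read 5486 to 7477 in Irf4 null and 4805 to 6064 in WT arrays (0.21 ± 0.12, adjusted p = 0.395). H2-Ob, its beta chain, read 13071 to 16710 in Irf4 null and 13981 to 17213 in WT arrays (-0.17 ± 0.10, adjusted p = 0.415), so the 2 chains of DO had opposite signs, neither past the threshold.

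None of the 6 lysosomal genes that process antigen or the invariant chain was called by limma, and 2 had an unadjusted p below 0.05, where 20.4% of all genes had one. Ifi30, an interferon-inducible thiol reductase that opens disulfide bonds of antigens, read 11373, 11588, 11505 and 12034 in Irf4 null arrays, against 7390, 10613, 8796 and 9876 in WT arrays. The groups were apart, and the difference of 0.35 ± 0.10 fell short of the threshold (adjusted p = 0.0878). It passed without WT array 2 and with array weights. Ctsh, a lysosomal aminopeptidase, read 8371 to 10080 in Irf4 null and 10311 to 10796 in WT arrays, a separated difference of -0.18 ± 0.07 (adjusted p = 0.239). Ctss, the main protease of the invariant chain in B cells, read 19655 to 19921 in Irf4 null and 17475 to 19494 in WT arrays (0.10 ± 0.06, adjusted p = 0.435).

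Ctsb, a protease that macrophages also express, read 2214, 2858, 3421 and 2561 in Irf4 null arrays, against 1939, 3491, 1902 and 2059 in WT arrays. The high WT array 2 was the WT array with the most signal of other-cell markers. The Ctsb difference was 0.26 ± 0.19 (adjusted p = 0.548), and -0.10 with those markers as a covariate. The 16 macrophage and monocyte markers summed to 23503 to 46576 in Irf4 null and 15703 to 53094 in WT arrays. Ctsl, a cathepsin best known from thymic epithelium, differed by -0.36 ± 0.19 (adjusted p = 0.37), and by -0.66 with the marker covariate, where it passed (adjusted p = 0.0355). Lgmn, an asparagine-specific protease, differed by -0.20 ± 0.11 (adjusted p = 0.374).

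Marchf1 was the class II gene that fell. It encodes a ubiquitin ligase that tags class II molecules and Cd86 at the surface for internalisation and breakdown. Its signals were 5206, 5053, 4407 and 4386 in Irf4 null arrays, against 7550, 6761, 6063 and 6644 in WT arrays. The groups did not overlap, and Marchf1 fell by 0.50 ± 0.09 on the log2 scale, to 0.706 of the WT level (adjusted p = 0.0111). A second probe set read 3947, 3867, 3662 and 2734 in Irf4 null arrays, against 5548, 4662, 4674 and 5112 in WT arrays, and also fell (-0.50 ± 0.12, adjusted p = 0.0409). The first value became -0.46 in the fit with the Xist-high term (adjusted p = 0.040), -0.37 within the Xist-high arrays (adjusted p = 0.334) and -0.55 within the Xist-low arrays (adjusted p = 0.195), and the call was also lost in a fit without the variance trend. The second did not pass with the Xist-high term (-0.41, adjusted p = 0.134), nor without any of Irf4 null arrays 2, 3 and 4 or WT arrays 1, 3 and 4 (-0.55 to -0.38, adjusted p = 0.0556 to 0.128). Dendritic cell markers, 9 genes, summed to 3859 to 4397 in Irf4 null and 5249 to 5785 in WT arrays, sums in which Ccr7, also a B cell gene, was the largest on every array. Without Ccr7 the other 8 summed to 1159 to 2192 in Irf4 null and 1133 to 3031 in WT arrays, which overlapped, and none of the 9 genes was called (limma, 2 at an unadjusted p below 0.05). The part of those markers in the Marchf1 values was not tested.

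Of the 37 genes, 18 lie on chromosome 17, where class I and class II genes are interleaved. The 4 genes Psmb9, Tap1, Psmb8 and Tap2, which follow each other among class II genes, had log2 fold changes of 0.61, 0.31, 0.24 and 0.00. Their nearest measured neighbours in the set were H2-DMb2 at 0.02 and H2-Ob at -0.17, and beyond H2-Ob the chains H2-Ab1, H2-Aa and H2-Eb1 at -0.03, -0.11 and -0.01. Outside chromosome 17, Nlrc5 and Marchf1 both lie on chromosome 8 with opposite signs.

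**Figure D5:**
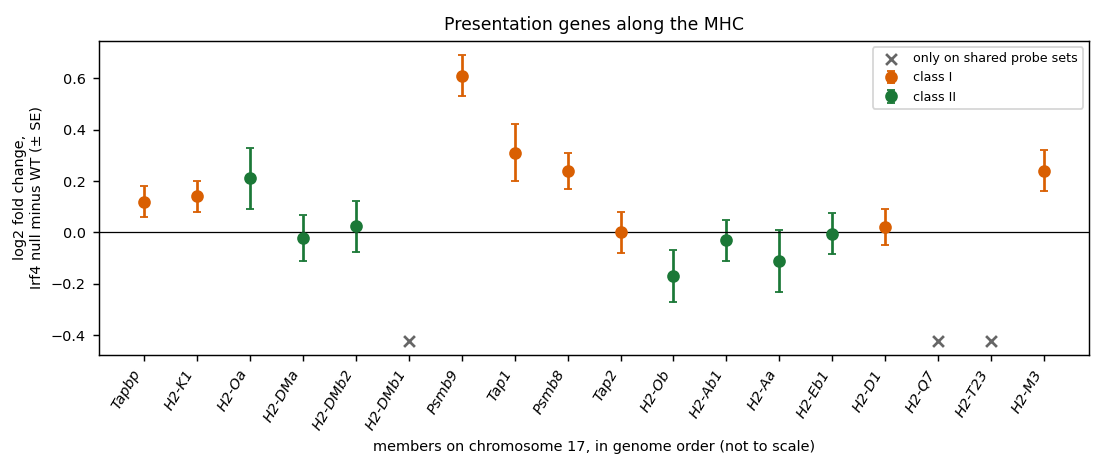
Log2 fold change (Irf4 null minus WT, bars of 1 standard error) of the 18 genes on chromosome 17, in genome order and not to scale, with crosses for the genes that lie only on shared probe sets. Psmb9, at 0.61, lies among class II genes whose values run from -0.17 to 0.21.

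RefSeq promoters were found for 28 of the 37 genes, 14 of each class, and none was found for Ciita, Rfxap, H2-Ab1, Cd74, Ctsb, Ctsh, Nlrc5, Tap2 and Tapbpl. Some genes have several promoters, 34 in all over the 28 genes. All were searched on both strands, and a gene was counted when any of its promoters held the motif. Shares refer to 32851 single promoters of the same length, so gene counts and shares are unlike measures. The interferon response motif GAAA, any 2 bases, GAAA was in the promoters of 4 class I genes (B2m, Erap1, H2-T23 and Psme1) and 1 class II gene (Ctss), where 3.44% of all promoters hold it. In the B2m promoter printed above it starts at base 112, counted from the first base shown. None of these 5 genes had a call on a probe set of its own or on the H2-T23 probe sets. The promoter of Psmb9, which rose, held neither this motif nor the Ets-IRF composite motif GGAA, any 2 bases, GAAA, which was in 1 member promoter (Psme1) and in 2.72% of all promoters; this says only that those letters are not in that window.

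The pair of an X box and a Y box is the known signature of class II promoters. The looser X box CCNAGNNAC before the Y box core ATTGG was in a promoter of 7 of 14 class II genes and 1 of 14 class I genes. Of all single promoters, 3.63% hold the pair on either strand. With both motifs as written on the strand of the gene, 6 class II genes and no class I gene had a promoter with the pair. The matches of Psmb9 and Marchf1 dropped out, and 1.18% of all promoters held it. The 7 were H2-Aa, H2-DMb1, H2-DMb2, H2-Oa, H2-Ob, Lgmn and Marchf1, of which Lgmn and Marchf1 also have promoters without the pair. The class I gene was Psmb9, whose window shares 275 bases with that of Tap1 on the opposite strand. The full X box consensus CCTAGCAAC, a special case of the looser motif, was in H2-Ob alone among them, from base 160 of the printed sequence, and in 0.804% of all promoters. The Y box core alone was in a promoter of 9 class I and 11 class II genes (37.4% of all promoters). The looser X box alone was in a promoter of 2 class I and 8 class II genes (17.3% of all promoters). The kappa B motif GGGNNTTCC was in a promoter of 3 genes of each class (5.82% of all promoters). They were H2-K1, H2-D1 and H2-Q7 for class I and H2-Aa, H2-Oa and Lgmn for class II.

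Further genes of both pathways were read from lists of genes with known roles there. Of 17 tested genes in a wider class II list (other proteases, Y box factors and endosomal proteins), 0 were called by limma, with a median of -0.02. An unadjusted p below 0.05 was found for 2 of the 17, and for 20.4% of all genes. Of 12 tested genes in a wider class I list, Cd1d1 and Cd1d2 rose and none fell, with a median of 0.16, where 2.67% of all genes rose and 1.70% fell. The first of them, Cd1d1, encodes a class I-like molecule that presents lipids to natural killer T cells. Cd1d1 read 12250, 12205, 9575 and 10346 in Irf4 null arrays, against 5004, 4480, 4756 and 5848 in WT arrays, and rose by 1.14 ± 0.10 (adjusted p = 0.000256), a call that all 23 alternatives kept. Cd1d2 read 118, 137, 122 and 185 in Irf4 null arrays, against 15.3, 37.2, 50.3 and 55.7 in WT arrays, and rose by 1.54 ± 0.28 (adjusted p = 0.0126), with signals near the dim end where folds are uncertain. The Cd1d2 call was lost without Irf4 null array 4 (1.42, adjusted p = 0.0522). The chaperones Canx and Calr, which fold class I heavy chains, differed by 0.03 and 0.11 and did not pass.

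Interferon-stimulated genes outside antigen presentation also rose. Of 21 tested genes in that list, 16 rose and none fell, where 2.67% of all genes rose and 1.70% fell, with a median log2 fold change of 1.11, beside 0.24 for the class I genes. Their part in the class I values was not tested.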

How the data were processed

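Per the labels, each of the 8 samples was 1 Affymetrix mouse array hybridised with biotin-labelled RNA. The authors deposited MAS5 intensities (linear, not log) for every probe set, with the tool named by the submitters' processing notes and no version or scaling target given there. The deposited table holds 45101 probe sets without detection calls, and no columns were identical. Names came from the platform's annotation (34958 with 1 symbol, 932 with several, 9211 unnamed), and 34754 symbols were matched to the RefSeq gene table of GRCm38.p6. The deposited intensities share 1 trimmed mean, so no further normalization was applied.

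The 64 control probe sets and the lowest 40% by mean log2 value (up to 5.88, a signal of 42.9) were dropped, and log2(signal + 16) of the other 27022 was fitted with limma 3.58.1 in R 4.3.3 (lmFit, eBayes with trend), all 8 arrays, no covariate, Benjamini-Hochberg adjustment over the 27022 and a threshold of 0.05. Fold changes are on this scale, which makes those of dim probe sets smaller. Signals are single MAS5 estimates, and 4 arrays per group limit the precision. Exact permutation tests used scipy 1.17.1, figures matplotlib 3.10.9.

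The genes and lists were chosen with earlier results of these data known. Values on every array are given for member genes that passed and for the core of each class, other genes by range, shared probe sets apart, and from the wider lists up to 4 called genes with the smallest adjusted p. Genes with values chosen after these were seen are the proteasome pairs, H2-M3, Ifi30, Ctsb, Canx, Calr and Ccr7. The alternatives were the pseudocount, the filter, quantile or common-median scaling, a block for the replicate number, variance models, weights per array, arrays left out singly, Xist classes, the other-cell markers as a covariate, the probe set of a gene and the threshold.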

Additional observations from a re-analysis of the deposited data

Results flagged for a closer look

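In 8 of 92 groups of 4 arrays, 1 array lay far from the other 3 by Dixon's gap measure; chance alone gives about 1 in 20 groups. In Irf4 null, Rfxank read 282 on array 2 against 380 to 396 on the others, H2-Eb1 read 20420 on array 4 against 24021 to 24360, and Psmb10 read 4404 on array 3 against 4081 to 4123. In WT, H2-Eb1 read 25658 on array 4 against 22335 to 22693, and Cd74 read 21014 on the same array against 18010 to 18414. WT array 2 read 13981 for H2-Ob against 16809 to 17213 and 3491 for Ctsb against 1902 to 2059. WT array 1 read 5761 for the Psme2b and Psme2 probe set against 6501 to 6569. No call rests on Rfxank, H2-Eb1, Cd74, H2-Ob, Ctsb or Psmb10, and the call of the Psme2b and Psme2 probe set was lost without WT array 1.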

How the results depend on the processing

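Over 25 alternatives, 807 of 825 gene values kept their side of the threshold, 7 lost a call and 11 gained one, and no called value turned its sign. Uncalled values of 12 genes changed sign 43 times, within -0.25 to 0.15. Nlrc5 was called in 23 of the 25 alternatives, Psmb9 in 24 and Marchf1 in 21. The count of class I genes that rose, 2, was 1 within the Xist-high and 0 within the Xist-low arrays, and 2 to 4 with 1 array left out (4 without WT array 2, which adds Psme1 and Tapbpl). The class I count was 3 with the Xist-high term, which adds H2-M3, and with array weights, which add Tapbpl. It was also 3 with quantile scaling, with the lowest 60% dropped or with the mean of a gene's probe sets, each adding Psmb10. No class II gene rose except Ifi30 with array weights (1) and Ctsb and Ifi30 without WT array 2 (a range of 0 to 2). The count of class II genes that fell, 1, was 0 without the variance trend, within either Xist class or at an adjusted p below 0.01, and 2 with the marker covariate, which adds Ctsl. Class medians ran from 0.16 to 0.27 for class I and from -0.10 to 0.05 for class II.

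Over all probe sets, 543 rose and 407 fell. These counts were 355 and 200 without the variance trend, 1001 and 745 with array weights, 381 and 256 with the Xist-high term, 193 and 129 within the Xist-high arrays, 62 and 55 within the Xist-low arrays, and 213 and 117 at an adjusted p below 0.01. With a common median they were 375 and 417. Leaving out 1 array gave 283 to 1297 and 183 to 875. In the proteasome pairs, the Psmb10 to Psmb7 and Psmb8 to Psmb5 differences, 0.37 and 0.21 over all arrays, were 0.56 and 0.41 within the Xist-low arrays and 0.32 and 0.12 within the Xist-high arrays; the cause was not tested for these changes. Deviations of same-numbered arrays correlated at 0.237, 0.277, -0.03 and -0.08 for numbers 1 to 4. The arrays of numbers 1 and 2 also share an Xist class, and the labels do not say whether equal numbers mark pairs. These values therefore cannot decide whether the arrays are paired. With the replicate number as a block, 690 probe sets rose and 478 fell, and the class counts were 2 and 1 as before. The data hold no detection calls, so dim signals cannot be told from background.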

Other observations

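Cd82, a tetraspanin of the compartment where class II molecules are loaded, read 2878, 2488, 3170 and 2408 in Irf4 null arrays, against 2173, 2328, 1848 and 2083 in WT arrays, groups that did not overlap (0.37 ± 0.11, limma, adjusted p = 0.0897). Pdia3, a disulfide isomerase of the class I loading complex, read 5023 to 5841 in Irf4 null and 3383 to 5314 in WT arrays (0.37 ± 0.12, adjusted p = 0.125). Both were chosen after their values were seen. Over all genes tested, 2.67% rose and 1.70% fell. Among markers of other cells, 1 of 15 tested macrophage and monocyte genes, 1 of 9 natural killer cell genes and 1 of 8 erythroid and platelet genes rose and none fell. They were Ms4a7 (1.90 ± 0.25, adjusted p = 0.0021), with 645, 698, 662 and 963 in Irf4 null arrays against 133, 339, 145 and 173 in WT arrays, and Prf1 (1.33 ± 0.24, adjusted p = 0.0122), with 270 to 590 in Irf4 null and 120 to 217 in WT arrays. The third was Ppbp (0.81 ± 0.19, adjusted p = 0.0415), with 1860 to 3473 in Irf4 null and 1123 to 1654 in WT arrays, a call kept in 8 of 23 alternatives. Of the 15 macrophage and monocyte genes, 11 had a fold change above 0, where 6439 of 11799 genes did. So did 11 of 11 neutrophil, 9 of 9 natural killer cell, 8 of 9 T cell, 7 of 8 erythroid and platelet and 4 of 9 dendritic cell genes. The median log2 fold change was 1.08 for natural killer cell genes and 1.31 for neutrophil genes. An unadjusted limma p below 0.05 was found for 8 of the 9 natural killer cell genes and 0 of the 11 neutrophil genes, where 20.4% of all genes had one.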
